A study of Mus musculus with 24 samples.

Results

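The 12 libraries compared here hold RNA of neurons sorted from the cortex of adult mice, 6 labelled SST and 6 labelled EXC, of 24 libraries in the series. They were taken by label alone: all libraries with the subtype label SST against all with the label EXC. After papain digestion, sorting kept live cells (those without DAPI, a dye that enters dead cells) that carried GFP or tdTomato from a transgenic reporter line. The labels name neither the driver of the reporter nor the strain, age in weeks, genotype or number of animals behind a library. Each group held 4 male and 2 female libraries. The p-values rest on the spread between libraries of a subtype, estimated over all 24 libraries. Because nothing says that the libraries came from separate animals, that spread may in part be technical. The 2 groups never shared a sequencing pool. Of the SST libraries 5 lay in POOL7098 and SST replicate 5 in POOL7100, while 5 EXC libraries lay in POOL6188 and EXC replicate 3 in POOL7099. Pool and cell type can therefore not be told apart within these 12 libraries, and every difference below carries that limit.

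Somatostatin (Sst) neurons are GABAergic interneurons that arise in the medial ganglionic eminence of the embryo and, in cortex, mostly inhibit the dendrites of pyramidal cells. Excitatory neurons release glutamate, load it into vesicles with the transporter encoded by Slc17a7, and arise from the dorsal telencephalon. SST neurons are recognised by Sst, by the GABA-synthesising enzymes Gad1 and Gad2 and by the lineage factor Lhx6, and excitatory neurons by Slc17a7 and factors such as Neurod2 and Tbr1.

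Levels are given in normalised CPM, a gene's reads scaled to a common library total. Total counts ran from 5508099 to 15978459 reads in SST and from 4370732 to 8504337 in EXC. Pearson correlations of log2 values between libraries were 0.963 to 0.988 within SST, 0.833 to 0.975 within EXC and 0.767 to 0.913 between the groups. EXC replicate 3, the shallowest of the 12, had a summed level of pyramidal neuron markers of 4240.4 CPM, against at least 9159 CPM in the other EXC libraries. Without it 2970 genes were higher and 2977 lower in SST, and none of the 146 genes described lost or gained a call. EXC replicates 2 and 6 carried oligodendrocyte markers at 3031 and 3298 CPM in sum, against 88.6 to 884 CPM in the other 4. In bulk samples fewer cells of a type and less RNA per cell cannot be told apart. The sex labels matched Xist, which was at 751.5 CPM or more in the 4 female libraries and at most 79.1 CPM in the 8 male ones.

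Reads of genes known from lung epithelium followed 1 pool, and their source was not tested. Scgb1a1, a secretory protein of airway cells, ran from 28.4 to 42.8 CPM in the 5 SST libraries of POOL7098, and had 0 reads in SST replicate 5 and in all 6 EXC libraries. Sftpc, a surfactant protein of lung alveoli, ran from 30.4 to 53.8 CPM in the same 5 libraries, against 0 in SST replicate 5 and at most 0.652 CPM in EXC. Over 9 genes of lung epithelium, picked after their values were seen, the summed level was 113 to 188 CPM in those 5 SST libraries, 319.9 and 380.3 CPM in the 2 VIP libraries of the same pool, and at most 5.70 CPM in the 17 libraries of other pools. Such genes passed the test as higher in SST, and Scgb1a1 had the largest fitted fold change of all genes tested, a value that depends on how groups at 0 reads are treated. Among the 2550 genes called higher in SST, 1416 had the 5 libraries of POOL7098 above all EXC libraries, and in 64 of these SST replicate 5 was not above all EXC.

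The question the comparison addresses is how the transcripts of SST interneurons differ from those of excitatory neurons. Of 14890 genes tested, 5723 were called (38.4%), at a Benjamini-Hochberg adjusted p under 0.05 from edgeR's quasi-likelihood test: 2550 were higher in SST (17.1%) and 3173 lower (21.3%). A change of at least 8-fold was seen for 270 of the genes higher and 344 of those lower in SST. In 2725 genes (18.3%) the groups did not overlap, with all SST libraries above all EXC libraries in 1375 (9.23%) and below in 1350 (9.07%). The median log2 fold change of all genes tested was -0.06. Counts of gene list members below stand against these shares of 17.1% and 21.3%. Fold changes below are log2, SST minus EXC, with their standard error.

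**Figure D1:**
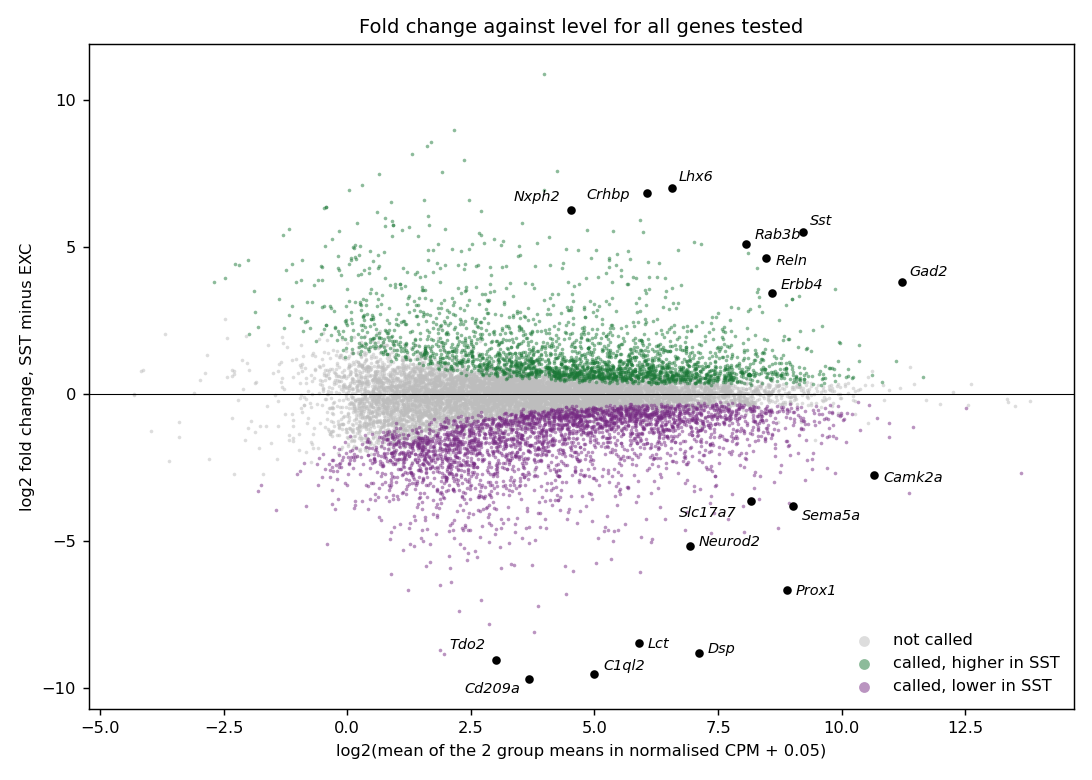
Each point is 1 of the 14890 genes tested; the horizontal axis is the log2 of the mean level of both groups in normalised CPM plus 0.05, and the vertical axis the log2 fold change SST minus EXC. Lhx6 at 7.0 and Crhbp at 6.82 stand high on the SST side, and C1ql2 at -9.52 and Dsp at -8.80 stand low on the EXC side.

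Genes of GABA synthesis and packaging were higher in SST, and 4 genes of glutamate release and uptake were lower. Sst itself (chromosome 16, bases 23889573 to 23891342 in GRCm38.p6) ran from 701 to 1422 CPM (median 1225) in SST and from 7.27 to 72.9 CPM (median 17) in EXC. Every SST library lay above every EXC library, and the difference was 5.50 ± 0.72, adjusted p = 7.8e-07. Slc17a7, the vesicular glutamate transporter (chromosome 7, bases 45163921 to 45176139), had a median of 42.4 CPM in SST (range 22.5 to 60.4) and of 567 CPM in EXC (range 162 to 820.5). All EXC libraries were above all SST libraries, EXC replicate 3 being the lowest of its group, and the difference was -3.63 ± 0.49, adjusted p = 1.46e-06. Gad1, which makes GABA for metabolic and synaptic pools, lay between 576 and 1137 CPM in SST (median 791) and between 74.7 and 161 CPM in EXC (median 98.8) (3.03 ± 0.20, adjusted p = 5.9e-12). Gad2, the enzyme tied to synaptic vesicles, measured 3258 to 5243 CPM in SST, with a median of 4532, against 184 to 598 CPM in EXC, with a median of 275 (3.81 ± 0.23, adjusted p = 8.83e-13). Both groups were separate for either enzyme. Compared per length, in the deposited RPKM, Gad2 stood above Gad1 in SST, at 460.0 ± 73.6 RPKM against 115 ± 29.2 RPKM (SD, n = 6 each).

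Slc32a1, which loads GABA into vesicles, ran from 158 to 206 CPM (median 167) in SST and from 4.44 to 29.5 CPM (median 13.2) in EXC, a difference of 3.62 ± 0.32, adjusted p = 1.03e-09. Its groups did not overlap. Of 8 listed GABA genes 7 passed the filter on low counts, 6 of them higher and 0 lower in SST. Of 11 listed glutamate genes 10 passed, with 4 lower, among them Slc17a7, Slc1a1 and Slc1a2, and 1 higher. Without SST replicate 2, or without SST replicate 3, 2 were lower, and without EXC replicate 5, 3 were higher. The one higher in the full set was Slc38a1, a glutamine transporter, which had a median of 482 CPM in SST (range 398 to 585) and of 169.6 CPM in EXC (range 133 to 239.6) (1.39 ± 0.15, adjusted p = 2.79e-08). Slc1a2 is also an astrocyte marker, and the astrocyte list was higher in EXC (below). With the pool as a further term the GABA genes kept their side, Gad1 at 2.38, adjusted p = 0.000433 and Gad2 at 2.85, adjusted p = 4.56e-05, whereas Slc17a7 lost its call and changed sign (0.74, adjusted p = 0.573). In that fit the EXC level rests on EXC replicate 3 alone, the EXC library with the least Slc17a7, since only it shared a pool with VIP libraries, which in turn shared one with SST.

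**Figure D2:**
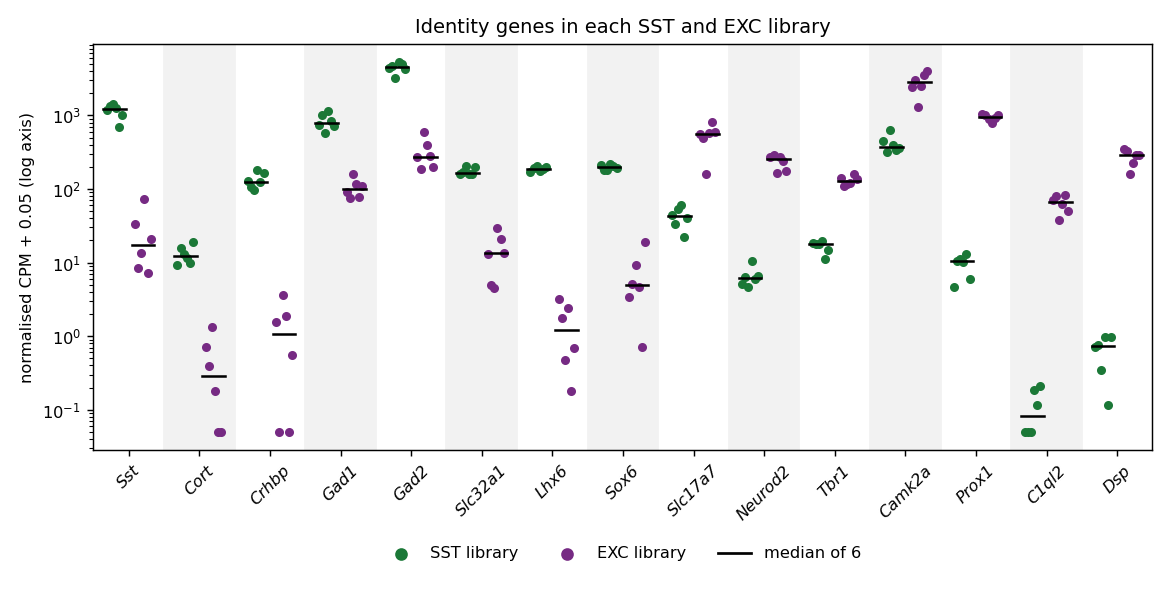
Normalised CPM plus 0.05 on a log axis for 15 identity genes in each of the 6 SST and 6 EXC libraries; black lines are medians. The groups are separate for all 15 genes; for Slc17a7 the EXC library nearest to SST is EXC replicate 3, at 162 CPM.

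The transcription factors of the interneuron lineage were with few exceptions higher in SST. All 22 genes on the list passed the filter and were called, 18 higher and 4 lower (median log2 fold change 3.38). Those higher include Elmo1, which is not a transcription factor. Lhx6, the factor that marks neurons of the medial ganglionic eminence, lay between 169 and 203 CPM in SST (median 188) and between 0.132 and 3.15 CPM in EXC (median 1.17) (7.0 ± 0.39, adjusted p = 2.9e-13). Sox6, which acts after Lhx6 in the same lineage, measured 179 to 218 CPM in SST, with a median of 197, against 0.661 to 18.8 CPM in EXC, with a median of 4.83 (4.88 ± 0.45, adjusted p = 1.99e-09). Dlx2, a factor of the ganglionic eminences, ran from 16.1 to 18.8 CPM (median 17.3) in SST and from 0 to 1.43 CPM (median 0.274) in EXC (5.20 ± 0.39, adjusted p = 6.07e-11). The groups were separate for each, with EXC libraries near 0 for Lhx6 and Dlx2. Npas1, of lower level, had a median of 10.6 CPM in SST (range 6.56 to 14) and of 0.185 CPM in EXC (range 0 to 1.06) (4.94 ± 0.52, adjusted p = 2.15e-08).

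The 4 members lower in SST were Prox1, St18, Zeb2 and Etv1. Prox1, a homeobox factor of caudal ganglionic interneurons and also of dentate granule cells, lay between 4.62 and 13.2 CPM in SST (median 10.3) and between 776 and 1040.1 CPM in EXC (median 965) (-6.67 ± 0.26, adjusted p = 4.81e-16). St18, a zinc finger factor, measured 2.72 to 12.2 CPM in SST, with a median of 6.11, against 79.2 to 182 CPM in EXC, with a median of 125 (-4.25 ± 0.36, adjusted p = 6.23e-10). Both were separate between the groups, with every SST library below every EXC library. Once a pool term was added, Lhx6 (7.96, adjusted p = 0.000112), Prox1 (-6.87, adjusted p = 3.23e-11) and St18 (-5.62, adjusted p = 9.57e-07) kept their calls, and the list's count was 12 higher and 3 lower.

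Transcription factors of glutamatergic neurons lay the other way. Of 29 listed, 26 passed the filter, with 18 lower and 2 higher in SST (median -1.50). Neurod2, a factor of pyramidal neuron differentiation, ran from 4.6 to 10.5 CPM (median 6.16) in SST and from 163 to 292 CPM (median 255) in EXC (-5.18 ± 0.38, adjusted p = 3.3e-11). Neurod1 had a median of 1.71 CPM in SST (range 1.04 to 6.82) and of 46.8 CPM in EXC (range 37.4 to 60.9) (-4.41 ± 0.43, adjusted p = 5.62e-09). Bhlhe22, a factor that patterns cortical areas, lay between 1.19 and 7.02 CPM in SST (median 3.07) and between 51.5 and 123 CPM in EXC (median 87.6) (-4.64 ± 0.42, adjusted p = 1.48e-09). Emx2, which specifies dorsal telencephalon, measured 0 to 1.07 CPM in SST, with a median of 0.387, against 3.17 to 21.2 CPM in EXC, with a median of 11.9 (-4.49 ± 0.68, adjusted p = 8.32e-06). In all 4 genes each SST library was below each EXC library. Tbr1, a deep layer factor chosen after its values were seen, ran from 11.1 to 19.3 CPM (median 17.7) in SST and from 110.3 to 157 CPM (median 129) in EXC (-2.98 ± 0.36, adjusted p = 2.68e-07).

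The exceptions were Cux1 and Cux2. Cux2, a factor of upper layer pyramidal cells, had a median of 63.4 CPM in SST (range 39.3 to 67.2) and of 11.6 CPM in EXC (range 5.5 to 16.6) (2.39 ± 0.20, adjusted p = 3.04e-10), with no overlap. Mef2c, an activity-dependent factor and the most abundant member that was not called, lay between 468 and 853 CPM in SST (median 665) and between 505 and 914 CPM in EXC (median 834) (-0.30 ± 0.16, adjusted p = 0.14). Under the pool term 6 members were lower: Bhlhe22 (-4.23, adjusted p = 0.00429) and Emx2 (-7.41, adjusted p = 0.000504) kept their calls, while Neurod2 (-1.26, adjusted p = 0.765), Neurod1 (-2.56, adjusted p = 0.265) and Tbr1 (-0.82, adjusted p = 0.426) lost theirs. Without the 5 SST libraries of POOL7098, Emx2 was not called (-3.29, adjusted p = 0.21).

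Neuropeptide genes as a group were higher in SST, well beyond Sst itself. Of 25 listed precursor genes 21 passed the filter, 16 higher and 3 lower in SST (median 2.33), and all 16 had every SST library above every EXC library. Among 7 of these precursors, compared per length in the deposited RPKM, the order in SST was Sst with 1117 ± 252 RPKM, Npy with 206 ± 48.8 RPKM, Penk with 127 ± 71.8 RPKM, Pdyn with 41.9 ± 9.32 RPKM, Tac1 with 30.4 ± 11.5 RPKM, Crh with 4.82 ± 1.88 RPKM and Cort with 3.55 ± 0.976 RPKM (SD, n = 6 each). The spreads of Npy and Penk overlap, as do those of Pdyn and Tac1 and those of Crh and Cort. Npy, neuropeptide Y, chosen after its values were seen, measured 135 to 254 CPM in SST, with a median of 191, against 24.3 to 70.6 CPM in EXC, with a median of 27.5 (2.33 ± 0.31, adjusted p = 1.38e-06). Cort, cortistatin, a peptide close to somatostatin, ran from 9.15 to 18.8 CPM (median 12.3) in SST and from 0 to 1.27 CPM (median 0.235) in EXC (5.14 ± 0.54, adjusted p = 2.63e-08). Crh, the corticotropin-releasing hormone, had a median of 9.2 CPM in SST (range 7.33 to 19) and of 0.281 CPM in EXC (range 0 to 1.06) (5.10 ± 0.41, adjusted p = 1.93e-10). Every SST library had more of each than any EXC library.

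Tac1, the substance P precursor, lay between 39.3 and 118 CPM in SST (median 96) and between 1.69 and 4.29 CPM in EXC (median 2.83) (4.77 ± 0.35, adjusted p = 3.24e-11). Penk, the enkephalin precursor, measured 169 to 697 CPM in SST, with a median of 345, against 36.2 to 61.4 CPM in EXC, with a median of 48.1 (2.94 ± 0.32, adjusted p = 4.27e-08). Pdyn, the dynorphin precursor, ran from 133 to 235 CPM (median 179.9) in SST and from 13.1 to 54 CPM (median 44.3) in EXC (2.26 ± 0.34, adjusted p = 7.05e-06). These 3 are also on the list of striatal markers, whose summed level varied among SST libraries (below). Cck, cholecystokinin, went the other way: it had a median of 24.6 CPM in SST (range 21.9 to 40.1) and of 275 CPM in EXC (range 94.1 to 316) (-3.13 ± 0.31, adjusted p = 1.04e-08). The fit with a pool term called 16 members higher and 0 lower, and not Cck (-0.47, adjusted p = 0.489).

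The start of Sst is shown because its cAMP response element is the textbook site through which the gene responds to cAMP, and Btg2 because it holds the same letters and was lower in SST. Both are the 250 bases before the start site in RefSeq on GRCm38.p6, 5′ to 3′ on the minus strand; the window of Sst lies at chr16:23890845-23891094 and that of Btg2 at chr1:134079156-134079405. The RefSeq gene span given above for Sst reaches past its window, so the start site used for it lies inside that span; for Btg2 the window abuts the gene. Capitals mark TGACGTCA, which reads the same on both strands and begins 48 bases before the start in Sst and 166 bases before it in Btg2.
Sst: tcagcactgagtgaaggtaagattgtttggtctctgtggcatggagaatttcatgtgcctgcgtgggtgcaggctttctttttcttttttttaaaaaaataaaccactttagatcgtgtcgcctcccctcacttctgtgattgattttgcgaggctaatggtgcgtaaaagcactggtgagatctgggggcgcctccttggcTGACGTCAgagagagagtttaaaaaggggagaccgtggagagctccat
Btg2: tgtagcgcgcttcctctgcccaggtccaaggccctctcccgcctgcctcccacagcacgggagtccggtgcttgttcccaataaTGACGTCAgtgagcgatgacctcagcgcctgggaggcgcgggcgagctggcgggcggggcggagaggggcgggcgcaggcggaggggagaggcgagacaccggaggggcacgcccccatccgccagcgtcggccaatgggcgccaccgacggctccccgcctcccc
Counted per window, the motif was in 508 of 32851 windows of this length (1.55%). Counted per gene, with the motif in any of its windows, it was in 328 of 10906 tested genes with a window (3.01%). By call, it was in 59 of 1930 genes called higher in SST (3.06%), 42 of 2209 called lower (1.90%) and 227 of 6767 not called (3.35%). Btg2, an early response gene, lay between 3.11 and 6.98 CPM in SST (median 4.95) and between 16.6 and 39.8 CPM in EXC (median 30.4) (-2.58 ± 0.30, adjusted p = 1.18e-07), against the rise of Sst given above.

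Of the 30 markers of SST interneurons all passed the filter, 25 being higher and 2 lower in SST. The label SST thus went with its marker genes, as the label EXC went with Slc17a7. Crhbp, a protein that binds the hormone of Crh, measured 95.8 to 183 CPM in SST, with a median of 126, against 0 to 3.6 CPM in EXC, with a median of 1.01 (6.82 ± 0.51, adjusted p = 6.63e-11). Elfn1, a postsynaptic protein that sets facilitating input onto these cells, ran from 202 to 332 CPM (median 237) in SST and from 1.9 to 13.2 CPM (median 6.49) in EXC (5.16 ± 0.36, adjusted p = 1.79e-11). Reln, a secreted matrix protein, had a median of 651 CPM in SST (range 581 to 813) and of 27.5 CPM in EXC (range 14.5 to 38) (4.63 ± 0.22, adjusted p = 6.07e-15). None of these overlapped between the groups. Chodl, a marker of long-range SST cells, lay between 11.4 and 19.6 CPM in SST (median 14.2) and between 0 and 2.96 CPM in EXC (median 0), its EXC reads all in EXC replicate 3 (5.25 ± 0.92, adjusted p = 0.000102). Without that library its fitted difference was 9.86 (adjusted p = 3.64e-08), a value that depends on how a group at 0 reads is treated. Nos1, nitric oxide synthase, found in the same long-range cells and chosen after its values were seen, measured 209.6 to 451 CPM in SST, with a median of 269, against 68.1 to 133 CPM in EXC, with a median of 109 (1.60 ± 0.22, adjusted p = 1.87e-06). Chodl was not called with a pool term (-0.02, adjusted p = 0.968), nor without the 5 SST libraries of POOL7098 (4.97, adjusted p = 0.0847). Of the whole list, 19 members were higher and 0 lower with a pool term.

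Apart from genes already given (Sst, Lhx6, Crhbp, Chodl, Dlx2 and Elfn1), the 15 genes with the largest rise in SST, at 10 CPM or more and with no overlap, were Nxph2, Myh4, Minar1, Myh13, Kctd8, Pcdh18, Cntnap3, Stk32a and Lgals1. Nxph2, a neurexophilin that binds neurexins, ran from 15.3 to 73.1 CPM (median 47.9) in SST and from 0 to 1.69 CPM (median 0.189) in EXC (6.25 ± 0.60, adjusted p = 4.41e-09). Minar1 had a median of 118 CPM in SST (range 86.9 to 142) and of 2.3 CPM in EXC (range 0.511 to 2.96) (5.90 ± 0.28, adjusted p = 6.07e-15). Kctd8, an auxiliary subunit of GABA-B receptors, lay between 35.2 and 73.9 CPM in SST (median 58.2) and between 0 and 2.91 CPM in EXC (median 0.704) (5.57 ± 0.45, adjusted p = 2.43e-10). In each, EXC libraries reached no more than 2.96 CPM. Pcdh18, a protocadherin, measured 67.3 to 115 CPM in SST, with a median of 79, against 0.511 to 3.0 CPM in EXC, with a median of 1.57 (5.55 ± 0.34, adjusted p = 9.74e-13). Cntnap3, a contactin-associated adhesion protein, ran from 93.5 to 147 CPM (median 125) in SST and from 0.635 to 4.69 CPM (median 2.63) in EXC (5.49 ± 0.30, adjusted p = 1.27e-13). Stk32a, a kinase, rose by 5.40 ± 0.65.

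Myh13 and Myh4, myosin heavy chains, had medians of 20.8 and 12.7 CPM in SST. Myosin genes share sequence, so reads may be split among copies, and neither was called with a pool term. In that fit the standard error of Myh4 was 216000, so its fold change was not usefully estimated. Lgals1, a secreted lectin, had a median of 33.1 CPM in SST (range 11.4 to 57.2) and of 0.848 CPM in EXC (range 0 to 1.69), SST replicate 5 being the lowest SST library (5.33 ± 1.05, adjusted p = 0.000218). It lost its call without the SST libraries of POOL7098 (3.67, adjusted p = 0.175) and changed sign with a pool term (-1.92, adjusted p = 0.193). Lung expresses this gene too, and whether its reads share a source with those of the lung genes above was not tested.

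On the EXC side 6 of the 15 leading genes are on the list of markers of dentate granule cells, the excitatory neurons of the hippocampal dentate gyrus. Chosen by the same rule, and so without overlap, the 15 were Cd209a, C1ql2, Tdo2, Dsp, Lct, Vwa3b, Slamf7, Glis3, Prox1, Phxr4, Cecr2, Fam160a1, Robo3, Ccnjl and Capn3. C1ql2, a secreted synaptic protein of mossy fibres, lay between 0 and 0.163 CPM in SST (median 0.0333) and between 37.4 and 82.1 CPM in EXC (median 66.5); the ratio of summed normalised reads was 851 in favour of EXC (95% counting interval 390.3 to 2320.1). Dsp, desmoplakin, measured 0.0665 to 0.937 CPM in SST, with a median of 0.685, against 160.1 to 349 CPM in EXC, with a median of 290.3 (-8.80 ± 0.51, adjusted p = 4.28e-13). Tdo2, which breaks down tryptophan, ran from 0 to 0.0665 CPM (median 0) in SST and from 11.4 to 22.8 CPM (median 15.8) in EXC, a ratio of 1236 in favour of EXC (95% counting interval 221 to 48886). Lct, lactase, had a median of 0.334 CPM in SST (range 0 to 0.49) and of 128 CPM in EXC (range 34.9 to 192) (-8.47 ± 0.49, adjusted p = 3.81e-13). Glis3, a zinc finger factor, lay between 0.133 and 0.622 CPM in SST (median 0.355) and between 20.1 and 101 CPM in EXC (median 32.8) (-6.81 ± 0.61, adjusted p = 1.25e-09). No SST library came near the EXC range in any of them. EXC replicate 3 was the lowest EXC library for C1ql2, Dsp and Lct and the highest for Tdo2 and Glis3.

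Cd209a, a lectin known from dendritic cells and one of several near copies, measured 0 to 0.0669 CPM in SST, with a median of 0, against 6.21 to 52.1 CPM in EXC, with a median of 25.2, a ratio of 1964 in favour of EXC (95% counting interval 352 to 77655). Slamf7, a receptor of immune cells, ran from 0 to 0.247 CPM (median 0.0607) in SST and from 2.64 to 27.4 CPM (median 9.76) in EXC, a ratio of 171 in favour of EXC (95% counting interval 77.9 to 467). For both, the lack of overlap between the groups was part of the rule that chose them. Vwa3b (-7.21 ± 0.56), Phxr4 (-5.91 ± 0.71), Cecr2 (-5.85 ± 0.49), Fam160a1 (-5.77 ± 0.56), Robo3 (-5.40 ± 0.70), Ccnjl (-5.36 ± 0.65) and Capn3 (-5.21 ± 0.53) completed the set. Of 18 dentate granule cell markers all passed the filter, 14 lower and 2 higher in SST, and the higher ones were Calb1 and Pdyn. Their summed level was 1227 to 1612 CPM in SST and 3372 to 4405 CPM in EXC. Under the pool term 10 members were lower, among them Dsp (-11.12, adjusted p = 4.21e-08) and Tdo2 (-10.19, adjusted p = 6.65e-05), while of the 15 leading genes C1ql2, Lct, Robo3 and Ccnjl lost their calls with their signs kept. Standard errors in that fit were 167.8 for C1ql2, 84420 for Robo3 and 10.59 for Ccnjl. The fold changes of these genes were hardly estimated there, so their lost calls say nothing about a dependence on the pool.

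Pyramidal neuron markers, some of them given above, were lower in SST in 18 of 19 tested members of 20 listed (Emx1 had too few reads). Their sums were 1387 to 2041 CPM in SST and 4240.4 to 11562 CPM in EXC. Deep layer markers were lower in 8 and higher in 4 of 20 tested, and upper layer and layer 4 markers lower in 4 and higher in 6 of 16. Those 6 include Calb1, also on the list of SST interneuron markers, and Penk, also on that of striatal markers. Fezf2, a factor of layer 5 output neurons, had a median of 0.91 CPM in SST (range 0.445 to 3.14) and of 17.8 CPM in EXC (range 2.12 to 35.3), with overlap (-3.84 ± 0.67, adjusted p = 5.66e-05). With a pool term 1 pyramidal marker was lower and 1 higher, and Fezf2 changed sign (2.11, adjusted p = 0.452).

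**Figure D3:**
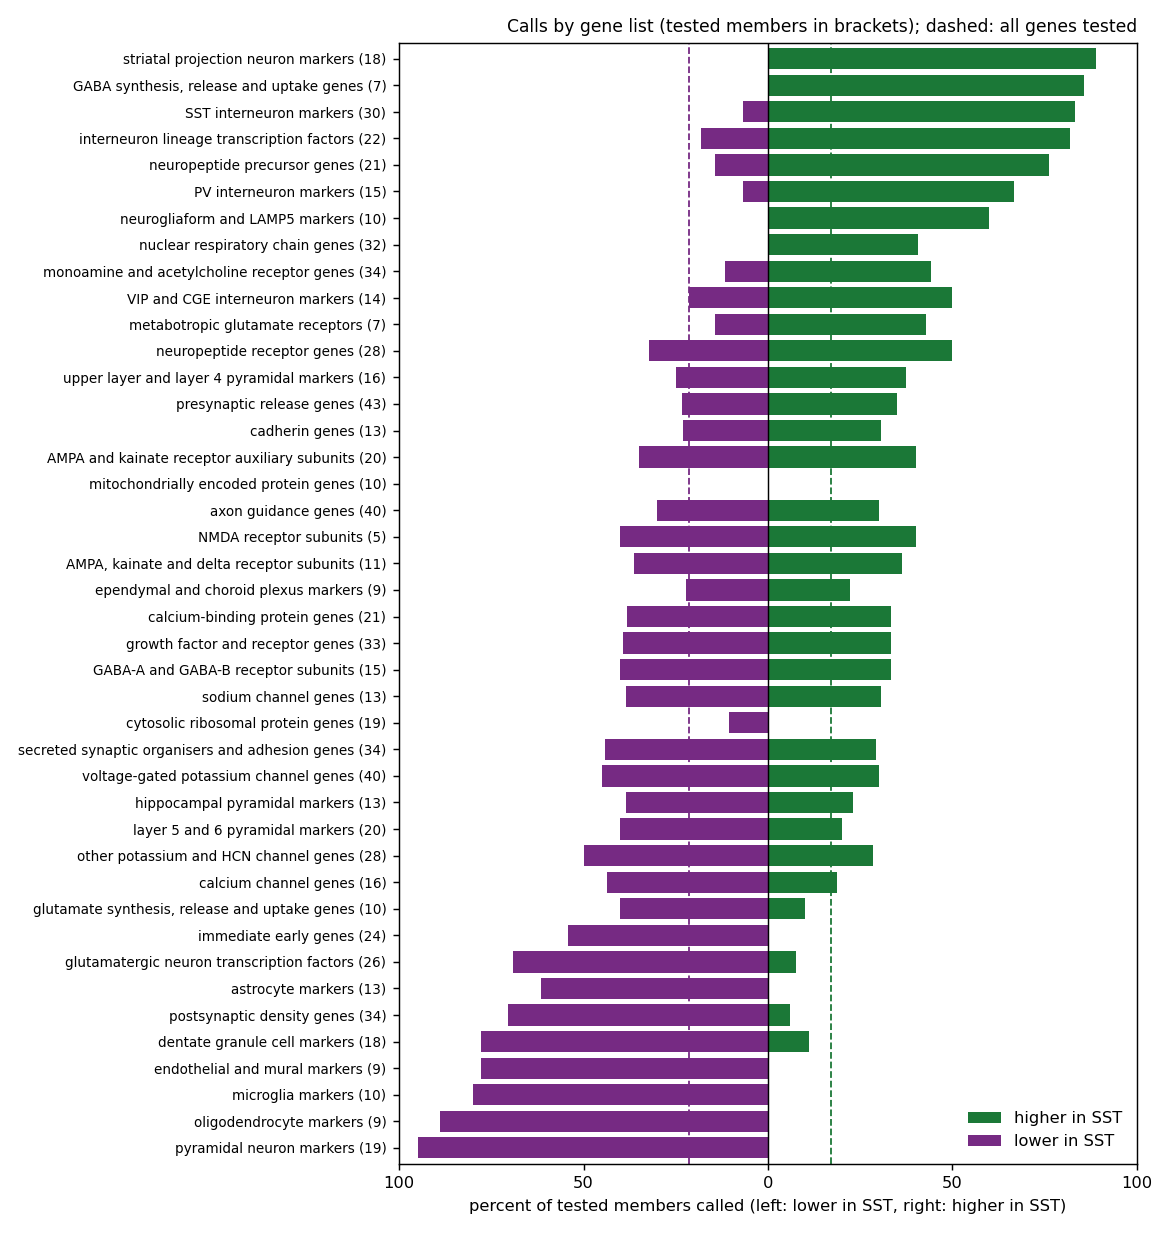
Percent of the tested members of each gene list (number in brackets) called higher in SST, to the right, and lower, to the left; dashed lines mark 17.1% and 21.3%, the shares over all genes tested. Striatal, GABA and SST interneuron lists lie farthest to the right, and pyramidal, oligodendrocyte and microglia lists farthest to the left.

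Receptors for glutamate differed subunit by subunit. Of 11 AMPA, kainate and delta subunits 4 were higher and 4 lower in SST. Grik1, the kainate receptor subunit GluK1, lay between 65.8 and 104 CPM in SST (median 70.3) and between 0.926 and 9.09 CPM in EXC (median 1.78) (4.55 ± 0.39, adjusted p = 7.34e-10). Gria4, the AMPA subunit GluA4, measured 148 to 288 CPM in SST, with a median of 191, against 30.5 to 74.7 CPM in EXC, with a median of 43.2 (2.15 ± 0.23, adjusted p = 2.82e-08). Gria2, whose edited protein makes AMPA receptors impermeable to calcium, ran from 1128 to 1563 CPM (median 1326) in SST and from 2198 to 3249 CPM (median 2582) in EXC (-0.98 ± 0.20, adjusted p = 0.000403). None overlapped, with SST above EXC for the first and second and below it for Gria2. Grik3 rose by 1.34 ± 0.18.

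Among 5 tested NMDA subunits 2 were higher and 2 lower. Grin3a, which lowers calcium flow through the receptor, had a median of 419 CPM in SST (range 395 to 465) and of 48.9 CPM in EXC (range 35.1 to 86.5) (2.93 ± 0.25, adjusted p = 5.64e-10). Grin2d, a subunit of interneurons, lay between 18.3 and 34 CPM in SST (median 22.6) and between 2.12 and 13.2 CPM in EXC (median 4.21) (2.15 ± 0.35, adjusted p = 2.06e-05). Grin2a measured 203 to 274 CPM in SST, with a median of 212, against 544 to 909 CPM in EXC, with a median of 746 (-1.75 ± 0.14, adjusted p = 1.64e-10). Grin2b ran from 1368 to 2295 CPM (median 1752) in SST and from 2442 to 5194 CPM (median 3622) in EXC (-1.11 ± 0.18, adjusted p = 2.26e-05). SST libraries were above all EXC libraries for Grin3a and Grin2d and below them for Grin2a and Grin2b. Grin1, the obligatory subunit, overlapped (-0.36 ± 0.21, adjusted p = 0.184). Per length, Grin2b stood at 54.4 ± 10.5 RPKM in SST and 120.2 ± 27.3 RPKM in EXC (SD, n = 6 each), above Grin2a in both groups (12 ± 1.6 RPKM and 41.1 ± 6.3 RPKM).

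Metabotropic receptors showed Grm2, a presynaptic autoreceptor, lower in SST: it had a median of 2.92 CPM in SST (range 1.98 to 4.53) and of 76.5 CPM in EXC (range 28.1 to 102) (-4.53 ± 0.36, adjusted p = 1.54e-10). Grm4 rose by 1.59 ± 0.33. Of 20 genes on the list of auxiliary subunits 8 were higher and 7 lower. The 7 include Dagla and Porcn, which encode enzymes and not receptor subunits. Neto2, a kainate receptor partner, lay between 325 and 819 CPM in SST (median 569.6) and between 34.9 and 74.6 CPM in EXC (median 48.3) (3.48 ± 0.22, adjusted p = 2.91e-12). Olfm1, a secreted AMPA receptor partner, measured 174 to 301 CPM in SST, with a median of 205, against 700.5 to 1168 CPM in EXC, with a median of 1107 (-2.26 ± 0.15, adjusted p = 3.19e-12). Its relative Olfm3 lay the other way, rising by 2.29 ± 0.23. Shisa9 fell (-1.17 ± 0.14), and Shisa6 overlapped (0.04 ± 0.16, adjusted p = 0.868). Grin2b lost its call under the pool term (-0.91, adjusted p = 0.0639), and Grin1 was called higher (1.24, adjusted p = 0.0231). Without the SST libraries of POOL7098, Gria2, Grin2b, Grm4 and Shisa9 lost their calls with their signs kept.

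Of 15 tested GABA-A and GABA-B subunits 5 were higher and 6 lower. Gabrg1, the gamma1 subunit, ran from 55.7 to 144 CPM (median 91.1) in SST and from 2.25 to 19.9 CPM (median 4.61) in EXC (3.75 ± 0.50, adjusted p = 1.24e-06). Gabra3, the alpha3 subunit, had a median of 144 CPM in SST (range 105 to 176) and of 56.3 CPM in EXC (range 36.6 to 104) (1.23 ± 0.18, adjusted p = 5.46e-06). Gabra5, the alpha5 subunit of extrasynaptic receptors, lay between 33 and 58.1 CPM in SST (median 48) and between 187 and 276 CPM in EXC (median 227) (-2.26 ± 0.18, adjusted p = 1.35e-10). SST was above EXC for the first and second and below it for Gabra5. Gabrq rose by 3.35 ± 0.52, and its call was lost with a pool term (1.72, adjusted p = 0.26). Gabrb2, the most abundant member not called, overlapped (0.01 ± 0.20, adjusted p = 0.972).

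Potassium channel genes went both ways. Of 40 voltage-gated channel genes 12 were higher and 18 lower in SST. Kcnc2, the Kv3.2 channel of fast repolarisation, measured 385 to 833 CPM in SST, with a median of 563, against 23.2 to 37.2 CPM in EXC, with a median of 31.4 (4.27 ± 0.19, adjusted p = 4.82e-15). Every SST library lay far above every EXC library. Kcnip1, a partner of A-type channels, ran from 62.1 to 97.8 CPM (median 72.5) in SST and from 0.926 to 14.3 CPM (median 3.79) in EXC (3.80 ± 0.34, adjusted p = 1.7e-09). Kcng2, a silent Kv modifier, had a median of 0.779 CPM in SST (range 0.445 to 1.32) and of 16.8 CPM in EXC (range 8.46 to 21.8) (-4.27 ± 0.42, adjusted p = 9.53e-09). Kcns3 rose by 3.21 ± 0.41.

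Of 28 other potassium and HCN channel genes tested, 8 were higher and 14 lower. Kcnmb2, which inactivates BK channels, lay between 27.6 and 50.1 CPM in SST (median 42.6) and between 0.504 and 5.71 CPM in EXC (median 0.734) (4.93 ± 0.41, adjusted p = 3.23e-10). Kcnj6, the GIRK2 channel opened by G proteins, measured 23.6 to 37.3 CPM in SST, with a median of 25.6, against 146 to 206 CPM in EXC, with a median of 180.0 (-2.68 ± 0.16, adjusted p = 1.07e-12). The groups were separate for both, EXC replicate 3 being the highest EXC library for Kcnmb2. Hcn3, a pacemaker channel, rose by 2.12 ± 0.31. In the fit with a pool term the voltage-gated list had 15 higher and 3 lower.

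Among 13 sodium channel genes 4 were higher and 5 lower. Scn1a, the Nav1.1 channel of interneurons, ran from 302 to 637 CPM (median 423) in SST and from 78.3 to 192 CPM (median 105) in EXC (1.88 ± 0.21, adjusted p = 4.8e-08). Scn8a, the Nav1.6 channel of axon initial segments, had a median of 368 CPM in SST (range 252 to 434) and of 668 CPM in EXC (range 484 to 841) (-0.94 ± 0.14, adjusted p = 6.83e-06). SST was above EXC for Scn1a and below it for Scn8a, with no overlap. Scn2a, the Nav1.2 channel, overlapped (0.09 ± 0.19, adjusted p = 0.749). Fgf12, a channel-binding factor, lay between 324 and 1183 CPM in SST (median 720.5) and between 78.2 and 186 CPM in EXC (median 122) (2.51 ± 0.26, adjusted p = 2.25e-08). Scn1a (0.80, adjusted p = 0.156) and Scn8a (-0.46, adjusted p = 0.264) lost their calls with a pool term.

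Of 16 calcium channel genes 3 were higher and 7 lower. Cacna2d2, an alpha2delta subunit, measured 138 to 184 CPM in SST, with a median of 159, against 6.3 to 16.9 CPM in EXC, with a median of 8.63 (3.96 ± 0.24, adjusted p = 7.49e-13). Cacna2d1, its relative, ran from 86.7 to 145 CPM (median 124) in SST and from 371 to 529 CPM (median 479.6) in EXC (-1.94 ± 0.22, adjusted p = 9.12e-08). The alpha2delta genes thus went opposite ways, Cacna2d3 joining the first (1.60 ± 0.17). Cacna1h, a T-type channel, had a median of 12.8 CPM in SST (range 8.87 to 20.8) and of 94.8 CPM in EXC (range 78.9 to 161) (-2.97 ± 0.25, adjusted p = 5.85e-10). Cacna1e, the R-type channel, lay between 439 and 625 CPM in SST (median 546) and between 1513 and 1872 CPM in EXC (median 1561) (-1.62 ± 0.14, adjusted p = 6.82e-10). All 5 kept their calls and signs with a pool term.

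Calcium-binding proteins had 7 higher and 8 lower of 21 tested. Calb1, calbindin, measured 237 to 436 CPM in SST, with a median of 392, against 108 to 183 CPM in EXC, with a median of 135 (1.41 ± 0.24, adjusted p = 3.84e-05). Calb2, calretinin, ran from 9.97 to 17.5 CPM (median 11) in SST and from 0.34 to 4.54 CPM (median 1.07) in EXC (2.89 ± 0.38, adjusted p = 1.1e-06). Rcan2, a calcineurin regulator, had a median of 489 CPM in SST (range 449 to 519) and of 72.7 CPM in EXC (range 29 to 84.6) (2.83 ± 0.19, adjusted p = 5.84e-12). In all 3 the SST libraries lay above the EXC libraries. Hpca, hippocalcin, fell with overlap (-1.38 ± 0.33, adjusted p = 0.00163). Calb1 was not called with a pool term (1.19, adjusted p = 0.179), and Hpca changed sign (1.37, adjusted p = 0.105).

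At the presynapse 15 of 43 genes were higher and 10 lower. Rab3b, a vesicle GTPase, lay between 435 and 629 CPM in SST (median 505) and between 5.08 and 24.9 CPM in EXC (median 15) (5.09 ± 0.31, adjusted p = 1.08e-12). Rims3, an active zone protein, measured 69.2 to 111 CPM in SST, with a median of 95.8, against 11.8 to 19.8 CPM in EXC, with a median of 18 (2.46 ± 0.20, adjusted p = 2.81e-10). Nrxn3, a neurexin, ran from 1082 to 1597 CPM (median 1269.9) in SST and from 222 to 318 CPM (median 258) in EXC (2.30 ± 0.14, adjusted p = 7.89e-13). Each was separate, with SST above. Unc13c rose by 2.37 ± 0.40, with a call lost without the SST libraries of POOL7098 (2.39, adjusted p = 0.0585). Syt7, a sensor of asynchronous release, had a median of 145 CPM in SST (range 106 to 170.3) and of 416 CPM in EXC (range 315 to 465) (-1.52 ± 0.14, adjusted p = 2.77e-09), and Syt17 fell by more (-2.60 ± 0.20). Snap25, the fusion protein, overlapped (0.32 ± 0.16, adjusted p = 0.122) and was called higher with a pool term (1.39, adjusted p = 0.00302), where 25 of the list were higher and 3 lower.

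Postsynaptic density genes were lower in SST in 24 of 34 and higher in 2. Camk2a, the kinase of excitatory synapses, lay between 321 and 631 CPM in SST (median 377) and between 1309 and 3967 CPM in EXC (median 2804) (-2.76 ± 0.28, adjusted p = 1.77e-08). Ddn, dendrin, measured 33.7 to 65.8 CPM in SST, with a median of 38.5, against 157 to 384 CPM in EXC, with a median of 311 (-2.78 ± 0.30, adjusted p = 3.25e-08). Nrgn, neurogranin, ran from 23.6 to 54.8 CPM (median 38.7) in SST and from 63.7 to 443 CPM (median 380.1) in EXC (-3.09 ± 0.49, adjusted p = 1.56e-05). In all 3 the SST libraries were below the EXC libraries, of which EXC replicate 3 was the lowest. Akap5, a scaffold for kinases, rose, as did Iqsec1; it had a median of 434 CPM in SST (range 268 to 515) and of 191 CPM in EXC (range 163 to 206) (1.15 ± 0.14, adjusted p = 3.73e-07). Dlg2, the scaffold PSD-93, was the most abundant one not called (0.15 ± 0.13, adjusted p = 0.361). With a pool term 4 members were lower and 4 higher: Camk2a (-0.57, adjusted p = 0.4) and Ddn (-0.62, adjusted p = 0.414) lost their calls and Nrgn changed sign (1.74, adjusted p = 0.2).

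Secreted synaptic organisers and adhesion genes had 10 higher and 15 lower of 34 tested. Nxph1, a neurexophilin, lay between 378 and 765 CPM in SST (median 520.0) and between 2.91 and 44.8 CPM in EXC (median 17.5) (4.80 ± 0.38, adjusted p = 1.93e-10). Cbln4, a cerebellin made by SST cells, measured 45.7 to 219 CPM in SST, with a median of 99.8, against 4.04 to 36.4 CPM in EXC, with a median of 6.39 (3.25 ± 0.44, adjusted p = 1.4e-06). C1ql3, a relative of C1ql2, ran from 21.2 to 71.3 CPM (median 27.3) in SST and from 593 to 995 CPM (median 828) in EXC (-4.57 ± 0.37, adjusted p = 2.5e-10). Nptx1, a pentraxin that gathers AMPA receptors, had a median of 72.8 CPM in SST (range 50.3 to 88.2) and of 1025 CPM in EXC (range 467 to 1165) (-3.73 ± 0.36, adjusted p = 6.61e-09). None overlapped, although Cbln4 in EXC replicate 5 came close to SST. Nptx1 was not called with a pool term (-1.45, adjusted p = 0.168), while Nxph1 (3.59, adjusted p = 0.00112) and C1ql3 (-4.55, adjusted p = 4.63e-05) were.

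Adhesion and guidance genes were divided, with 4 higher and 3 lower of 13 cadherins and 12 higher and 12 lower of 40 guidance genes. Cdh7 lay between 72.8 and 214 CPM in SST (median 131) and between 2.04 and 12 CPM in EXC (median 9.28) (3.99 ± 0.35, adjusted p = 8.28e-10). Cdh4 and Cdh13 rose by 2.89 ± 0.24 and 2.17 ± 0.19. Sema3a, a secreted repellent, measured 119.8 to 192 CPM in SST, with a median of 169.8, against 19.1 to 42.7 CPM in EXC, with a median of 33.4 (2.33 ± 0.22, adjusted p = 4.11e-09). Sema5a, a transmembrane semaphorin, ran from 40.8 to 102 CPM (median 67.6) in SST and from 563 to 1397 CPM (median 969.7) in EXC (-3.81 ± 0.21, adjusted p = 2.09e-13). Nrp1, the neuropilin that binds Sema3a, had a median of 11.1 CPM in SST (range 8.65 to 24.1) and of 132 CPM in EXC (range 89.1 to 151) (-3.36 ± 0.28, adjusted p = 5.39e-10). The ligand Sema3a was thus above EXC in every SST library, and its receptor below. Slit1 fell by 2.81 ± 0.22, and Unc5d rose by 1.65 ± 0.17; all 8 genes kept calls and signs with a pool term.

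Growth factors and their receptors had 11 higher and 13 lower of 33 tested. Erbb4, the neuregulin receptor of interneurons, lay between 432 and 1003 CPM in SST (median 691) and between 38.7 and 115 CPM in EXC (median 57.3) (3.43 ± 0.25, adjusted p = 3.14e-11). Igf1, insulin-like growth factor 1, measured 70.2 to 213 CPM in SST, with a median of 143, against 6.94 to 14 CPM in EXC, with a median of 8.52 (3.96 ± 0.28, adjusted p = 1.85e-11). Alk, a receptor tyrosine kinase, rose by 3.38 ± 0.25. Bdnf, the neurotrophin released by excitatory cells, ran from 4.2 to 14.8 CPM (median 5.56) in SST and from 53.6 to 135 CPM (median 67.5) in EXC (-3.46 ± 0.43, adjusted p = 3.61e-07). Nrn1, neuritin, had a median of 17.3 CPM in SST (range 13.5 to 30) and of 306 CPM in EXC (range 202 to 444) (-4.05 ± 0.31, adjusted p = 6.33e-11). The receptor and Igf1 were above EXC in each SST library, and Bdnf and Nrn1 below. Bdnf lost its call with a pool term (-2.62, adjusted p = 0.21), Nrn1 did not (-2.08, adjusted p = 0.0295).

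Peptide receptors were higher in 14 and lower in 9 of 28 tested. Tacr1, the substance P receptor, lay between 17.7 and 57.2 CPM in SST (median 40.5) and between 0.212 and 4.56 CPM in EXC (median 1.1) (4.45 ± 0.52, adjusted p = 1.34e-07). Oxtr, the oxytocin receptor, measured 30.1 to 70.6 CPM in SST, with a median of 56.6, against 2.12 to 11.6 CPM in EXC, with a median of 5.36 (3.16 ± 0.36, adjusted p = 1.11e-07). Rxfp3, the relaxin-3 receptor, ran from 15 to 46.4 CPM (median 25.3) in SST and from 0 to 2.52 CPM (median 0.377) in EXC (5.12 ± 0.57, adjusted p = 5.58e-08). Each was separate, with SST above. Npy1r, a receptor for neuropeptide Y, had a median of 9.61 CPM in SST (range 6.93 to 14.8) and of 82.5 CPM in EXC (range 65.6 to 125) (-3.16 ± 0.26, adjusted p = 4.01e-10), so that the peptide was higher and this receptor lower in SST. All 4 kept their calls with a pool term.

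For monoamine and acetylcholine receptors 15 were higher and 4 lower of 34 tested, and 7 were lower without EXC replicate 3. Drd2, a dopamine receptor, lay between 19.9 and 84.9 CPM in SST (median 46.9) and between 0 and 3.91 CPM in EXC (median 1.29) (4.88 ± 0.58, adjusted p = 1.9e-07). Drd1 measured 35.4 to 184 CPM in SST, with a median of 105, against 9.78 to 30 CPM in EXC, with a median of 15.3 (2.55 ± 0.32, adjusted p = 4.44e-07). Both are striatal markers as well. Htr1d rose by 4.39 ± 0.57 and Htr4, another serotonin receptor, fell by 2.41 ± 0.26. Chrm1, the M1 muscarinic receptor, ran from 43.6 to 86.4 CPM (median 50.2) in SST and from 111 to 268 CPM (median 242) in EXC (-1.97 ± 0.23, adjusted p = 1.89e-07). It was below EXC in every SST library. Htr1d and Chrm1 (-0.10, adjusted p = 0.89) were not called with a pool term. The standard error of Htr1d in that fit was 8358, so its fold change was not usefully estimated.

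Immediate early genes were lower in SST in 13 and higher in 0 of 24 tested. Arc had a median of 6.16 CPM in SST (range 2.39 to 20.3) and of 48.5 CPM in EXC (range 17.3 to 115), with overlap (-2.52 ± 0.49, adjusted p = 0.000194). Egr1, the most abundant one not called, lay between 126 and 400.0 CPM in SST (median 179.6) and between 141 and 650.2 CPM in EXC (median 355) (-0.60 ± 0.33, adjusted p = 0.16). Sums ran from 506 to 1050.1 CPM in SST and from 1143 to 2523 CPM in EXC, without overlap. With a pool term 3 were lower, and Arc changed sign (1.32, adjusted p = 0.334); Egr1 was called lower without SST replicates 1 and 3 (-1.14, adjusted p = 0.0134).

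Nuclear genes of the respiratory chain were higher in 13 and lower in 0 of 32 (median 0.50). Ppargc1a, a coactivator of mitochondrial genes, measured 187 to 341 CPM in SST, with a median of 245, against 67.8 to 119 CPM in EXC, with a median of 101 (1.39 ± 0.17, adjusted p = 1.99e-07). Cox6a2, a cytochrome oxidase subunit, ran from 3.16 to 5.94 CPM (median 4.07) in SST and from 0 to 1.51 CPM (median 0.0851) in EXC (3.33 ± 0.54, adjusted p = 1.96e-05). Both were separate, with SST above. Atp5b, an ATP synthase subunit, overlapped (0.25 ± 0.25, adjusted p = 0.449). The list's sum was 3474 to 4711 CPM in SST and 1380.05 to 4285 CPM in EXC, EXC replicate 3 being the lowest. Without EXC replicate 3 the count was 12 higher, without EXC replicates 2 and 6 it was 6, and with a pool term 24, Atp5b among them (2.41, adjusted p = 0.000396). Ribosomal protein genes had 2 lower and 0 higher of 19 tested, none being lower without any 1 library other than EXC replicate 3 or 5, and Rps3 overlapped (-0.03 ± 0.20, adjusted p = 0.924). Of 10 tested mitochondrially encoded protein genes none was called, COX1 being the most abundant (-0.25 ± 0.42, adjusted p = 0.672).

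Markers of other cells differed between the groups. Striatal projection neuron markers were higher in SST in 16 and lower in 0 of 18. Their sum was 962 to 2924 CPM in SST and 404 to 566 CPM in EXC; the highest were SST replicates 1 and 3 and the lowest the 2 female libraries, at 962 and 977 CPM. Adora2a, a marker of indirect pathway neurons, had a median of 21.8 CPM in SST (range 4.15 to 55) and of 0.737 CPM in EXC (range 0.521 to 2.27) (4.36 ± 0.53, adjusted p = 2.54e-07). It too was above EXC in every SST library, and 13 of the list were higher with a pool term. Without SST replicates 1 and 3 the list had 15 members higher. The part of striatal cells in the peptide and dopamine receptor levels given above was not tested.

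Glial and vascular markers were lower in SST. Oligodendrocyte markers were lower in 8 of 9 tested, astrocyte markers in 8 of 13, microglia markers in 8 of 10 and endothelial and mural markers in 7 of 9, with 0 higher in each. Mobp, a myelin protein, lay between 6.76 and 11.8 CPM in SST (median 8.58) and between 3.81 and 698 CPM in EXC (median 89.3), and Mbp measured 44.2 to 58.3 CPM in SST, with a median of 51.8, against 58.2 to 1838 CPM in EXC, with a median of 278. Both overlapped (-4.62 ± 0.94, adjusted p = 0.000314 and -3.56 ± 0.74, adjusted p = 0.000427). Without EXC replicate 6 alone, 3 oligodendrocyte markers were lower. Without EXC replicates 2 and 6, 2 oligodendrocyte markers, 3 astrocyte markers, 6 microglia markers and 3 endothelial and mural markers were lower, and with a pool term 0 oligodendrocyte markers, with Mobp (4.10, adjusted p = 0.122) and Mbp (2.79, adjusted p = 0.136) changing sign. Astrocyte sums were 245 to 353 CPM in SST and 513 to 4311 CPM in EXC, with no overlap and EXC replicate 6 the highest. The part of these cells in other EXC-high genes was not tested.

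**Figure D4:**
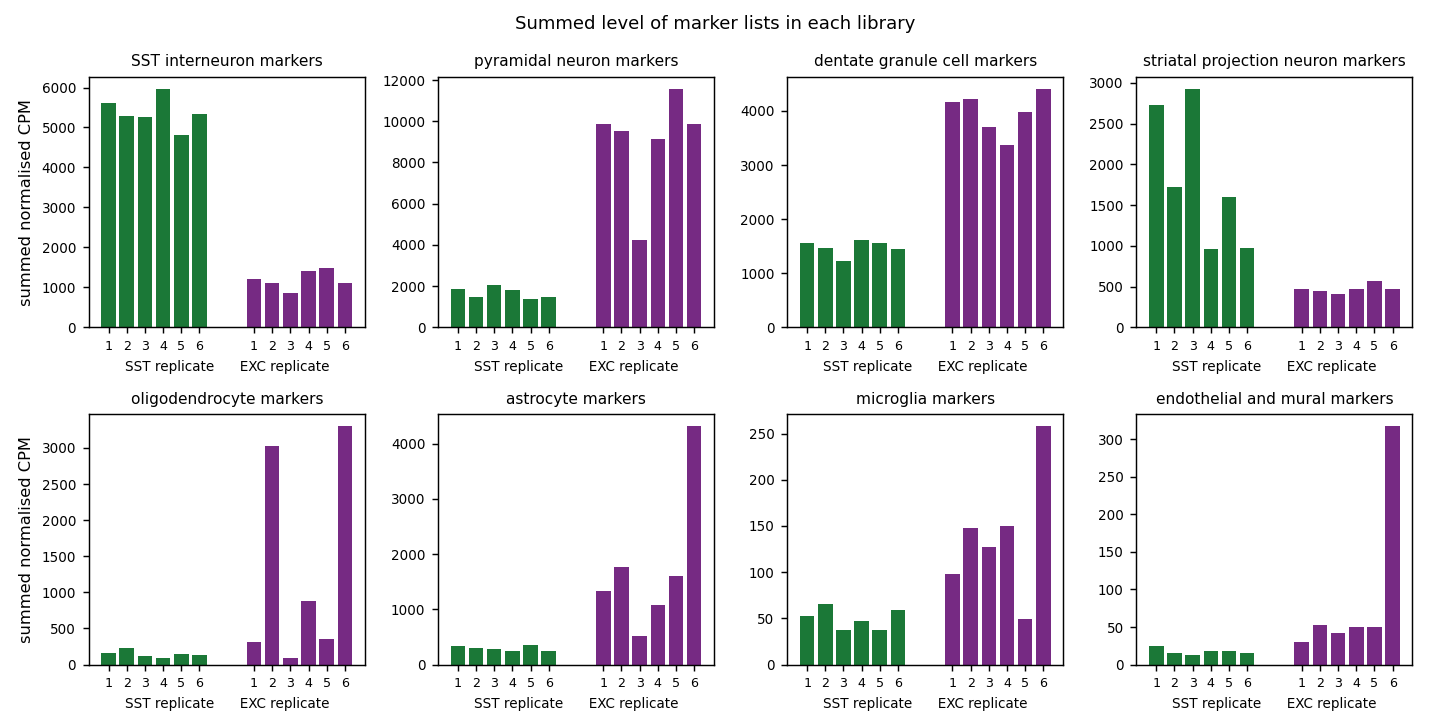
Summed normalised CPM of 8 marker lists in each library, bars starting at 0, with SST replicates 1 to 6 on the left and EXC replicates 1 to 6 on the right of each panel. EXC replicate 3 is low for pyramidal markers (4240.4 CPM), EXC replicates 2 and 6 are high for oligodendrocyte markers (3031 and 3298 CPM), and SST replicates 1 and 3 are high for striatal markers.

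A part of the markers of other interneuron classes was also higher in SST than in EXC: 10 of 15 for PV cells, 7 of 14 for VIP and caudal cells and 6 of 10 for neurogliaform cells, with 1, 3 and 0 lower. Several are shared with SST cells, as Calb2, Crh, Reln and Npy are. On the VIP and caudal list Vip, Chat, Htr3a and Cxcl14 were not called, and Adarb2, Npy2r and Cck were lower. On the neurogliaform list Lamp5 was not called, and the higher members include Gad1, a gene of GABAergic cells in general. Pvalb was higher on the PV list. The sums for PV markers were 200.4 to 269 CPM in SST and 50.5 to 202 CPM in EXC, and these ranges overlapped slightly.

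Among the settings tried, a pool term changed the call or the sign of more of the genes described than any other: of 146, 31 lost their call and 3 gained one. The sign changed in 10 of those 34, of which 9 lost their call and 1, Grin1, gained one. Of the genes that lost a call, Myh4, Robo3, Htr1d, C1ql2 and Ccnjl had standard errors of 10.59 to 216000 in that fit. Their lost calls say nothing about a dependence on the pool. With a pool term 2675 genes were higher and 2199 lower in SST, of which 1166 and 1293 were also called in that direction without it, and 70 were called in opposite directions. The share of calls that were higher in SST rose from 44.6% to 54.9%. Without the 5 SST libraries of POOL7098, so that SST replicate 5 stood alone and was assumed to vary like the other groups, 746 genes were higher and 393 lower, 730 and 393 of them called the same way in the full set and 0 in the opposite way.

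**Figure D5:**
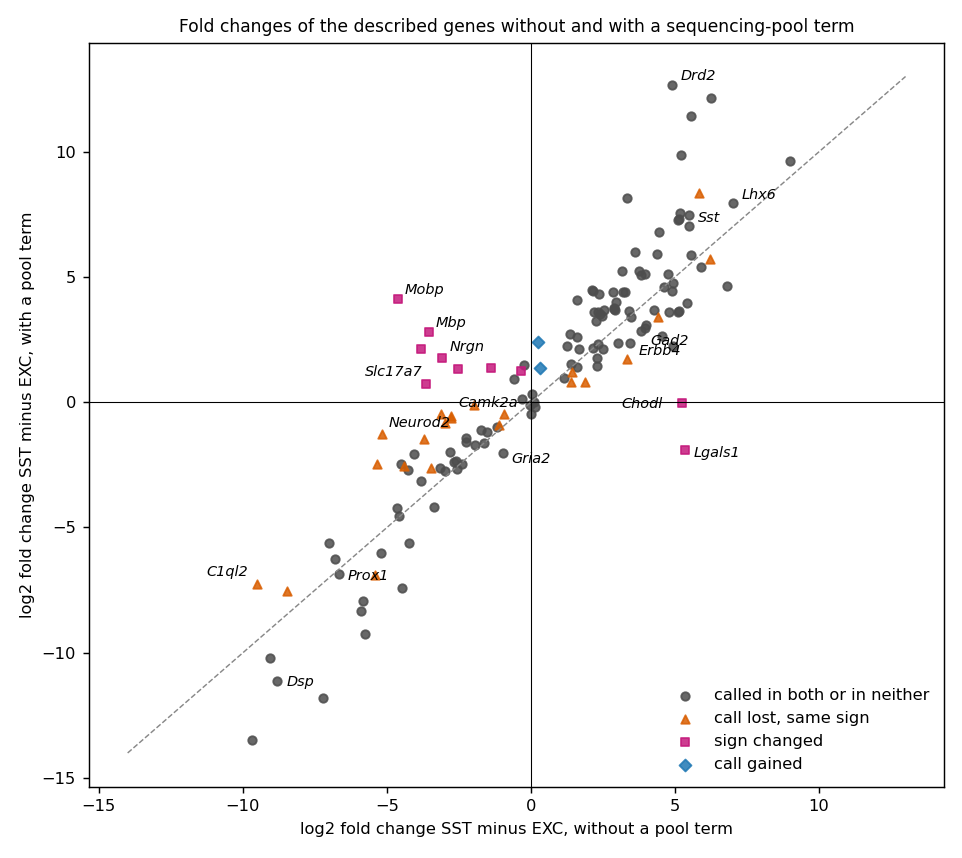
Log2 fold changes SST minus EXC of the genes described, without a pool term (horizontal) and with one (vertical); the dashed line marks equal values and the symbols show what became of each call. Sst, Lhx6 and Gad2 keep their side, while Slc17a7, Nrgn, Mbp, Mobp and Lgals1 cross zero.

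Finally, the SST minus EXC difference was compared between the sexes, with 4 male and 2 female libraries in each group. No gene was called (0.0% of 14890), 535 had an unadjusted p under 0.05, and the smallest adjusted p was 0.999 in edgeR's test; DESeq2 called 0 as well. In simulated data with this design, 14% of 100 genes with a log2 difference of 2 were recovered and 0% of those with a log2 difference of 1. Differences of these sizes were thus mostly not recovered in the simulation. No other gene differed between the groups in it, so these shares do not carry over to the reported test. With 2 female libraries per group, the lack of calls does not show that the sexes were alike.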

How the data were processed

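RNA-seq of sorted neurons was deposited as 1 table per library, with 36528 genes by NCBI Gene number. The deposited raw counts are whole reads per gene, per the file headers; reads were aligned with GSNAP to GRCm38, per the submitters' processing notes. The RPKM values, scaled by size factors, are the authors' own per the file headers, and were used here only to compare levels between genes per length. No source used here gives the counting rule for strand and shared reads, so antisense, overlapping and near-identical genes are uncertain.

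Gene numbers were matched to RefSeq symbols (31049) and, for 76 more, to GENCODE M21; genes with no symbol took 1.09% to 2.62% of the reads. Counts of all 24 libraries (SST, EXC, PV and VIP, 6 each) were fitted in edgeR 4.0.16 (R 4.3.3) with TMM factors, edgeR's low-count filter and terms for subtype and sex, and SST minus EXC was tested by quasi-likelihood with Benjamini-Hochberg adjustment over 14890 genes. The standard error is the log2 fold change divided by the root of F. The comparison of the SST minus EXC difference between the sexes used 8 groups of subtype and sex. Alternatives, among them DESeq2 1.42.0, are given in the closing section. On simulated counts, 46% of 100 genes changed by 1 on the log2 scale and 79% of 100 changed by 2 were recovered, with 5 false among 130 calls. No other gene differed between the groups in the simulation, whereas 38.4% of genes were called in the data. The adjustment of p-values was thus stricter there, and these shares do not carry over to the reported test. At 10 CPM, counting alone gave an error of 7.9% to 15.1% of the level, by library depth.

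The members and gene lists were chosen with earlier results of these data known. The named genes are 7 identity genes, the 15 with the largest change in each direction at 10 CPM or more without overlap, and up to 4 called members of each list in each direction plus the most abundant one not called; the text covers a part of them, and a few genes are not reported here. The lung genes and the fits without SST replicates 1 and 3 or without the SST libraries of POOL7098 were added after the data were seen. Ratios of summed reads carry a 95% counting interval where the lower group had at most 10 reads, and cover counting error only, as does the floor of 3 counts over a group at 0.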

Additional observations from a re-analysis of the deposited data

Results flagged for a closer look

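Within each group of 6 libraries, 384 sets of values were searched for a single library whose gap to the nearest of the other 5 was large for 6 values by the Dixon test. Such a library was found in 45. The rate of about 1 in 20 by chance holds for independent, normally distributed values. The CPM values here are skewed, and list sums share genes with each other and with single genes. A set with reads in 1 library only is always flagged, as for Tdo2 and Cd209a in SST and Chodl in EXC. The 45 can therefore not be set against 1 in 20. Values are CPM, with the range of the other 5 libraries in brackets. EXC replicate 3 was the highest of its group for Chodl (2.96 against 0 to 0), Vwa3b (57.7 against 14.4 to 29.1), Glis3 (101 against 20.1 to 46.2) and Phxr4 (62.2 against 4.69 to 11.4). It was also the highest for Robo3 (29.6 against 3.83 to 12.3), Ccnjl (19.9 against 8.24 to 11.9), Kcnmb2 (5.71 against 0.504 to 1.04) and ependymal and choroid plexus markers in sum (62.4 against 22.6 to 37.5). EXC replicate 3 was the lowest of its group for Olfm1 (700.5 against 1059 to 1168), Rcan2 (29 against 66.5 to 84.6), Ddn (157 against 304 to 384) and pyramidal neuron markers in sum (4240.4 against 9159 to 11562). It was also the lowest for neuropeptide precursor genes in sum (642 against 1529 to 1923), AMPA and kainate receptor auxiliary subunits in sum (2191 against 2921 to 3149) and postsynaptic density genes in sum (9513 against 13883 to 16123). SST replicate 4 was the highest of its group for Neurod2 (10.5 against 4.6 to 6.59), Pcdh18 (115 against 67.3 to 81.7), Cd209a (0.0669 against 0 to 0) and Neurod1 (6.82 against 1.04 to 1.96). It was also the highest for Fezf2 (3.14 against 0.445 to 1.33), Cck (40.1 against 21.9 to 26.4), Shisa6 (339.7 against 233 to 268) and C1ql3 (71.3 against 21.2 to 35.5). The same held for Nrp1 (24.1 against 8.65 to 11.6), Bdnf (14.8 against 4.2 to 6.98), other potassium and HCN channel genes in sum (2487 against 1571 to 1907) and secreted synaptic organisers and adhesion genes in sum (5769.6 against 3582 to 4256). SST replicate 4 was the lowest of its group for Fam160a1 (0.134 against 0.33 to 0.445). EXC replicate 6 was the highest of its group for Rxfp3 (2.52 against 0 to 0.912), Gabrg1 (19.9 against 2.25 to 7.82), Cox6a2 (1.51 against 0 to 0.542) and interneuron lineage transcription factors in sum (2613 against 2181 to 2327). It was also the highest for oligodendrocyte precursor markers in sum (55.7 against 0.846 to 8.73), astrocyte markers in sum (4311 against 513 to 1772) and endothelial and mural markers in sum (317 against 29.8 to 52.3). EXC replicate 5 was the highest of its group for Gria4 (74.7 against 30.5 to 45.3), Cbln4 (36.4 against 4.04 to 9.65) and Bdnf (135 against 53.6 to 83.7). SST replicate 3 was the highest of its group for Capn3 (1.34 against 0.134 to 0.494). SST replicate 3 was the lowest of its group for Calb1 (237 against 366 to 436). SST replicate 2 was the highest of its group for Grik1 (104 against 65.8 to 74.4). SST replicate 2 was the lowest of its group for Cux2 (39.3 against 57 to 67.2). SST replicate 5 was the highest of its group for Tdo2 (0.0665 against 0 to 0). SST replicate 1 was the highest of its group for Slamf7 (0.247 against 0 to 0.0889). EXC replicate 5 had 16736 genes with a read, against 18936 to 20182 in the other EXC libraries. SST replicate 4 thus stood high for several pyramidal and glutamatergic genes at low level, and EXC replicate 3 for several leading EXC genes. The lung genes of POOL7098 are given with the libraries above.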

How the results depend on the processing

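The count of genes higher in SST ran from 2022 to 3081 and that of lower genes from 2564 to 3789 over the other alternatives, each within 1.5 times the values of the report: DESeq2 (2622 and 3695), its size factors (2416 and 3388), upper-quartile factors, no low-count filter (3081 and 3789), 5 CPM in 6 libraries, no sex term, the 12 libraries alone (2022 and 2665), robust estimates, no mitochondrial genes, equal depth, and leaving out EXC replicates 2 and 6, EXC replicate 3 with SST replicate 5 (2709 and 2632), or SST replicates 1 and 3 (2414 and 2564). Leaving out 1 library at a time gave 2385 to 2970 higher and 2637 to 3124 lower. The SST minus EXC difference was called unlike between the sexes in 0 to 0 genes. A test against a 2-fold change called 682 higher and 979 lower, and without the 5 SST libraries of POOL7098 it was 746 and 393, with 16 of the 146 described genes losing their call and none its sign; both tests are stricter or hold fewer libraries by construction. Without the low-count filter 53 genes were called for an SST minus EXC difference that was unlike between the sexes. With a pool term the counts were 2675 and 2199, and the signs of Slc17a7 (0.74), Lgals1 (-1.92), Chodl (-0.018), Fezf2 (2.11), Mobp (4.10), Mbp (2.79), Grin1 (1.24), Nrgn (1.74), Hpca (1.37) and Arc (1.32) turned, all as log2 SST minus EXC; the cause was not tested, and the EXC side of that fit rests on EXC replicate 3. No paired analysis was possible because the labels carry no replicate numbers, the numbers used here only naming libraries in accession order. Depth limits genes near the filter.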

Other observations

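Tyrosine hydroxylase (Th), the enzyme of dopamine synthesis, was chosen after its values were seen and stands on none of the lists. It measured 5.23 to 12 CPM in the 6 SST libraries, with a median of 8.67, and 0 reads in all 6 EXC libraries. Over the summed reads, 640 in SST, it was at least 117-fold higher in SST, against a floor of 3 counts over the EXC group. Its fitted difference was called (7.84e-08 as adjusted p from edgeR's test), and SST replicate 5, sequenced in another pool than the rest, held reads of it as well.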
